A study of Mus musculus with 12 samples.

Results

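The cytosolic ribosomal protein genes were the 86 of 55414 genes in the expression table whose symbol has the form Rpl, Rplp or Rps followed by a number, with the letters of the named paralogs allowed and numbered pseudogenes left out. They comprised 51 genes of the large (60S) subunit, 3 genes of its stalk (Rplp0, Rplp1 and Rplp2) and 32 genes of the small (40S) subunit. All 86 matched the annotation by gene ID, 82 as protein coding genes and 4 as pseudogenes (Rps4l, Rps12l1, Rpl32l and Rpl6l). The symbols, not expression values, chose them. Genes that encode ribosomal proteins under other names, such as Rps3a1, Rpsa and Fau, were kept apart.

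The libraries came from whole lungs of 12 mice on the C57BL/6J background, taken on day 4 after 50 μg of intranasal lipopolysaccharide (LPS), which induces acute lung injury. The 6 IL-10 B-KO mice carried IL-10 flox/flox alleles and mb1-cre, a Cre driven from the gene of the B cell receptor component Cd79a, which directs the deletion of IL-10 to the B lineage. The 6 IL-10 B-WT mice were their controls, whose exact alleles, like the age of the mice, were not given in the sources used here. All mice received LPS, so no library shows these genes in an uninjured lung.

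A ribosome joins a small subunit, which reads the mRNA, to a large subunit, which forms the peptide bond, and nearly every ribosomal protein is present as a single copy per ribosome. Their mRNAs are among the most abundant in any cell and most begin with a 5′ terminal oligopyrimidine (TOP) tract, a C followed by a run of C and T, through which mTORC1 and Larp1 control their translation. Mammalian genomes also hold many processed pseudogenes of these genes, which are intronless copies of their mRNAs, and a few expressed paralogs.

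RefSeq promoters (GRCm38.p6) were found for 59 of the 81 members with enough expression to test. Within 15 bases either side of the annotated start, 26 of the 59 (44.1%) held a C followed by at least 7 bases that were each C or T on the gene's strand, against 10.8% of 27025 genes. The 4 longest runs are shown here beside the starts of 4 paralogs, so that the lengths of their runs can be compared. Capitals mark the run, and each line holds 15 bases before and 15 from the annotated start, read 5′ to 3′ on the gene's strand.
Rpl27a, chr7:109519180-109519209, plus strand: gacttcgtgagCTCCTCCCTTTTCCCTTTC
Rpl7a, chr2:26910792-26910821, plus strand: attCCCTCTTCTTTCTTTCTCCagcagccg
Rpl34, chr3:130730323-130730352, minus strand: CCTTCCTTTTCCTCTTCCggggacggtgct
Rpl35, chr2:39005117-39005146, minus strand: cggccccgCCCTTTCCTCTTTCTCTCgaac
Rpl22l1, chr3:28805493-28805522, plus strand: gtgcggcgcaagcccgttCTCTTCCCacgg
Rps27l, chr9:66946071-66946100, plus strand: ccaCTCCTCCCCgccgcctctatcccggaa
Rpl7l1, chr17:46782642-46782671, minus strand: gtgaggctgcgcaagcgcagtagctgaagc
Rpl36al, chr12:69184053-69184082, minus strand: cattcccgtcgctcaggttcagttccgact

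Within this window the runs of Rpl27a, Rpl7a, Rpl34 and Rpl35 were 18 or 19 bases long. They began 4, 12, 15 and 7 bases before the annotated start, so this start lies inside or at the end of the run and not at its first C, and the runs of Rpl27a and Rpl34 reach the edge of the window and may be longer. The run of Rps27l was 9 and that of Rpl22l1 was 8, while Rpl7l1 and Rpl36al held none of the required length. The letters CGGAAG, the core that factors of the ETS family bind, stood on either strand of the 300-base promoter in 40 of the 59 members (67.8%) and in 18.8% of all genes, and TATAAA stood in 7 members (11.9%) and in 15.7% of all genes. These matches describe letters, not bound sites. The 26 members with the pyrimidine run had a median log2 fold change between the genotypes of 0.39 (from 0.13 to 0.67) and the 33 without it had 0.37 (from 0.09 to 0.59), so the range of either set lay largely within that of the other.

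Expression was given as TPM, a transcript abundance corrected for length and scaled to the same total in every library, so that a value is a share of all transcripts of a library and the number of reads behind it is unknown. A pair of IL-10 B-WT libraries stood apart before any comparison. In IL-10 B-WT replicate 5 mitochondrially encoded genes took 30.5% of the summed TPM, against 5.66% to 13.3% in the other 5 IL-10 B-WT libraries and 4.63% to 15.8% in all IL-10 B-KO libraries. Globin genes took 9.66% of it, and the summed level of the 4 alveolar type 2 markers (such as Sftpc) was 3229 TPM, the lowest of its group, whose median was 13210. In IL-10 B-WT replicate 2 immunoglobulin genes took 15.4% of the summed TPM, against 0.248% to 2.19% in the other 5 IL-10 B-WT libraries and 0.00238% to 0.0652% in IL-10 B-KO. Il10 itself lay between 0 and 0.88 TPM in the IL-10 B-WT and between 0 and 0.58 TPM in those of IL-10 B-KO, a level in whole lung that checks no label, whereas Cd79a, the B cell gene, lay at 15.3 to 259 TPM and at 0 to 5.73 TPM.

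The first question was how much of the lung transcriptome these genes took. In the IL-10 B-WT libraries the 86 genes together took 4.06% (lowest), 8.14% (median) and 9.02% (highest) of the summed TPM, and among the IL-10 B-KO libraries 7.87%, 9.32% and 11.1%. The lowest share was that of IL-10 B-WT replicate 5 and the highest that of IL-10 B-KO replicate 1, and the groups overlapped, since IL-10 B-KO replicate 2 (7.87%) lay below 4 of the IL-10 B-WT libraries. The means were 7.57% ± 1.81 (SD, n = 6) in IL-10 B-WT, 8.27% ± 0.647 (SD, n = 5) without replicate 5, and 9.30% ± 1.11 (SD, n = 6) in IL-10 B-KO. In a whole lung, fewer cells of a type and less RNA per cell cannot be told apart, here and in every later value.

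**Figure D1:**
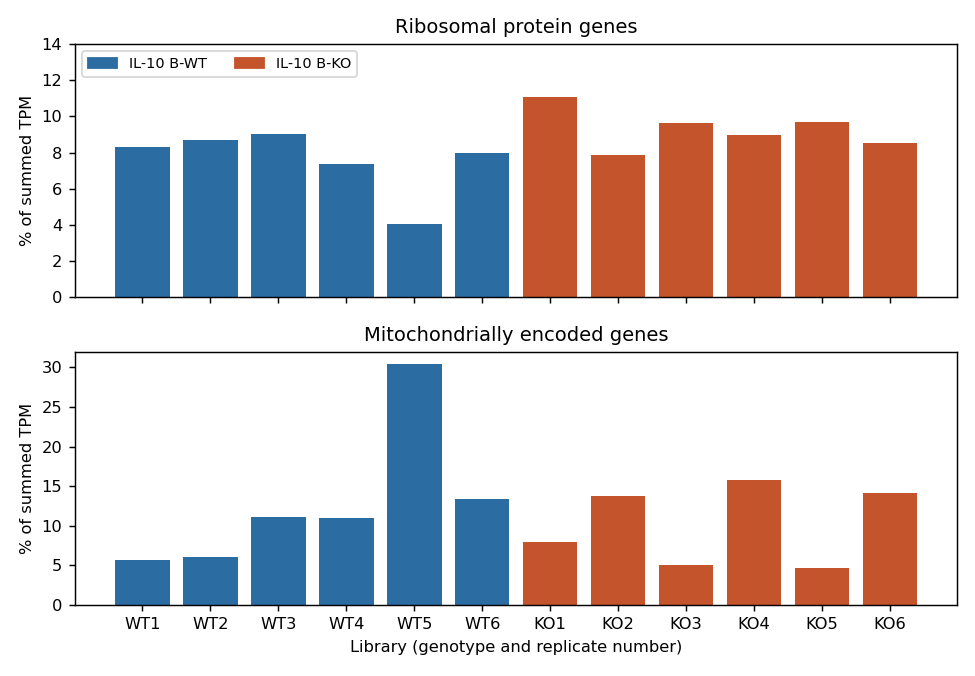
Share of the summed TPM (percent, y axis) taken by the 86 ribosomal protein genes (upper panel) and by mitochondrially encoded genes (lower panel) in each of the 12 libraries (x axis), with 1 bar per library, blue for IL-10 B-WT and orange for IL-10 B-KO. IL-10 B-WT replicate 5 has the lowest upper bar (4.06%) and the highest lower bar (30.5%).

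The members moved from library to library largely as a body. IL-10 B-WT replicate 5 gave the lowest value of the 12 for 79 of the 81 tested members, at a median of 0.485 times the mean of the other 5 IL-10 B-WT libraries, and IL-10 B-KO replicate 1 gave the highest for 64. The same counts were not made for all genes. Leaving out IL-10 B-WT replicate 5 also lowered the median log2 fold change of all genes tested, from 0.10 to -0.02. Low values in that library were thus not particular to the members. Across the 12 libraries the median coefficient of variation of a member was 22.3% for its TPM and 9.19% for its share of the members' own total. Rps23, a protein of the decoding centre, had the steadiest share (3.39%). Rpl22l1 had the least steady one (46.7%), ahead of Rps4l (28.8%), Rplp0 (27.0%), Rps20 (26.9%) and Rpl12 (24.9%).
The balance of the subunits moved little. The summed TPM of the 40S genes was 0.691 (lowest), 0.738 (median) and 0.752 (highest) times that of the 60S and stalk genes in IL-10 B-WT and 0.696, 0.720 and 0.741 times in IL-10 B-KO, with overlapping ranges.

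The levels of the members spanned a wide range. Of the 86, 38 had a mean of at least 1000 TPM, 38 lay between 100 and 1000, 5 lay between 1 and 100 and 5 lay under 1, and 29 were among the 100 genes with the highest mean TPM of the whole table. The 5 highest were Rpl41 (3360 TPM), which encodes the smallest ribosomal protein, Rpl13a (3161), Rps15 (2920), Rplp1 (2856) and Rps27 (2592). The 5 lowest did not pass the filter of at least 1 TPM in at least 6 libraries. They were Rpl10l, listed at 0 in every library, Rpl32l and Rpl6l, which stayed at or under 0.68 TPM, and Rpl39l and Rpl3l, which stayed at or under 0.65 and 1.29 TPM. Rpl10l and Rpl39l are paralogs known from the testis and Rpl3l from striated muscle.

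The comparison of the genotypes asked which of these genes differed between IL-10 B-KO and IL-10 B-WT lungs. No member did by the threshold used, a log2 difference of 1 or more either way at an adjusted p not above 0.05, by limma with Benjamini-Hochberg adjustment over all 15148 genes tested. The count was 0 of 81 members, where 0.495% of all genes passed, and the lowest adjusted p of a member was 0.340. At an unadjusted p of at most 0.05, 7 of 81 members (8.64%) differed, where 12.5% of all genes did in either direction. All 7 were higher in IL-10 B-KO, the direction of 6.83% of all genes, so on the deposited scale the share of members was near the background.
The direction, in contrast, was nearly uniform. The log2 fold change was above 0 for 80 of 81 members (98.8%), where it was so for 63.2% of all genes tested, and its median was 0.37 (quartiles 0.28 and 0.45), where the median of all genes was 0.10. These genes share libraries and a scale, so 80 members are not 80 observations. In no member did the 6 IL-10 B-KO libraries and the 6 IL-10 B-WT libraries fail to overlap, while 1.02% of all genes showed such a separation in either direction.

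A large part of the common difference rested on IL-10 B-WT replicate 5. Without it the median of the members was 0.17 with 76 of 81 (93.8%) above 0. The median of all genes was then -0.02, with 47.2% of them above 0. The same number of members, 7, then had an unadjusted p of at most 0.05, all higher, where 3.14% of all genes were higher at that p, and 6 of them were shared with the full set (Rpl3 left and Rpl15 entered), and the lowest adjusted p was 0.369. Rescaling without the mitochondrially encoded genes left the median at 0.32 but raised the number at an unadjusted p of at most 0.05 to 26 (32.1%), which held the same 7, with a lowest adjusted p of 0.223. All 26 were higher in IL-10 B-KO, where 8.65% of all genes were higher at that p, so under this scaling the share of members lay above the background. Rescaling without the immunoglobulin genes gave 2 members at that p (2.47%), where 4.85% of all genes were higher, and a median of 0.31, and leaving out IL-10 B-WT replicate 2 gave 10 (12.3%), where 5.83% of all genes were higher, and a median of 0.41. The part of the mitochondrial transcripts or of that library's condition in the difference was not tested.

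**Figure D2:**
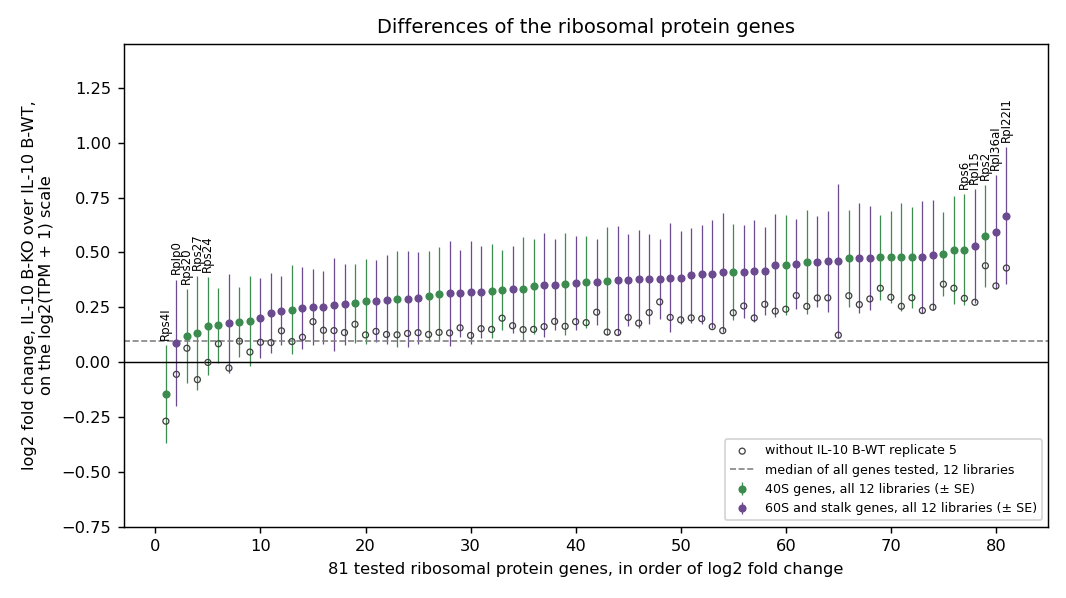
The log2 fold change of IL-10 B-KO over IL-10 B-WT on the log2(TPM + 1) scale (y axis) for the 81 tested members in order of their value (x axis), as filled points with standard errors (green for 40S, purple for 60S and stalk genes), and the same without IL-10 B-WT replicate 5 as open circles. Only Rps4l lies below 0 with all libraries, and almost all open circles lie under the filled points.

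The 7 members at an unadjusted p of at most 0.05 were Rps28, Rps2, Rps27l, Rps27a, Rpl36al, Rpl32 and Rpl3, and Rps9 came next. Rps28, a small protein near the mRNA exit of the 40S subunit, lay at 285, 486 and 588 TPM (lowest, median and highest) in IL-10 B-WT and at 558, 637 and 881 TPM in the IL-10 B-KO mice, with 4 IL-10 B-KO libraries above every IL-10 B-WT library. Its log2 fold change was 0.49 ± 0.19 (SE, n = 6 and 6) with an adjusted p of 0.340 (limma). A pseudogene with the same coding sequence held the larger level, as given with the copies.
Rps2, which lines the mRNA entry channel, lay at 567, 923 and 1305 TPM in the IL-10 B-WT mice and at 952, 1307 and 1839 TPM in the IL-10 B-KO mice. The difference was 0.57 ± 0.23 (SE) with an adjusted p of 0.350 (limma), and 3 IL-10 B-KO libraries lay above all IL-10 B-WT libraries.
Rps27a, which is made as a fusion with ubiquitin, lay at 121, 244 and 303 TPM and at 246, 322 and 376 TPM. Its difference was 0.48 ± 0.21 (SE) with an adjusted p of 0.379 (limma), and only 1 IL-10 B-KO library lay within the IL-10 B-WT range.
Rpl32, often a reference transcript in PCR, lay at 680, 1334 and 1542 TPM against 1361, 1696 and 1816 TPM, a difference of 0.46 ± 0.21 (SE), adjusted p of 0.381 (limma). Rpl3, a protein close to the peptidyl transferase centre, lay at 309, 542 and 679 TPM against 560, 703 and 830 TPM, a difference of 0.45 ± 0.20 (SE), adjusted p of 0.389 (limma). In Rps9, a protein of the early 40S assembly, the values were 660, 1276 and 1549 TPM against 1272, 1714 and 1970 TPM.

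Next to these the largest log2 fold changes were those of Rpl22l1 (0.67), Rpl36al (0.59), Rps2 (0.57), Rpl15 (0.53) and Rps6 (0.51). Rpl15 lay at 141, 394 and 484 TPM in the IL-10 B-WT mice and at 408, 493 and 591 TPM in the IL-10 B-KO mice, with an adjusted p of 0.424 (limma). Rps6, whose protein is phosphorylated by the S6 kinases downstream of mTORC1, lay at 437, 1106 and 1256 TPM and at 1148, 1344 and 1589 TPM, with an adjusted p of 0.426 (limma). Without IL-10 B-WT replicate 5 these differences were 0.43 for Rpl22l1, 0.35 for Rpl36al, 0.44 for Rps2, 0.27 for Rpl15 and 0.29 for Rps6.
At the other end of the order stood Rps4l (-0.15), Rplp0 (0.09), Rps20 (0.12), Rps27 (0.13) and Rps24 (0.17). Rps24, a gene mutated in Diamond-Blackfan anaemia, lay at 1276, 2538 and 2830 TPM in the IL-10 B-WT mice and at 2188, 2454 and 3423 TPM in the IL-10 B-KO mice. Rps20, which sits in the head of the 40S subunit, lay at 134, 180 and 221 TPM and at 136, 171 and 315 TPM. With the quantile normalization Rplp0, Rps20, Rps27 and Rps24 were below 0, so their direction depends on the scaling.

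Among members known for work outside the ribosome, none passed the threshold. Rpl5 and Rpl11, which with 5S rRNA bind Mdm2 and thereby stabilize p53, had differences of 0.46 ± 0.23 (SE) and 0.40 ± 0.22 (SE), with adjusted p of 0.432 and 0.460 (limma). Rpl5 lay at 71.0, 126 and 187 TPM in the IL-10 B-WT mice and at 145, 178 and 213 TPM in the IL-10 B-KO mice, and Rpl11 at 397, 872 and 980 TPM and at 882, 998 and 1271 TPM. For Rps3, which also has a role in DNA repair, the difference was 0.48 ± 0.25 (SE), and for Rps19, another gene of Diamond-Blackfan anaemia, it was 0.35 ± 0.22 (SE).
Several members serve as reference transcripts in PCR. Rps18 lay at 574, 1252 and 1491 TPM and at 1384, 1601 and 1789 TPM, a difference of 0.44 ± 0.23 (SE). Rpl13a, also a part of a complex that represses translation of inflammatory mRNAs, lay at 1476, 3182 and 3418 TPM and at 2788, 3302 and 4610 TPM, a difference of 0.31 ± 0.24 (SE). Rpl41 lay at 1439, 2995 and 3548 TPM and at 3200, 3959 and 4393 TPM, a difference of 0.48 ± 0.24 (SE), and Rps29, a small zinc-binding protein of the 40S head, had 0.24 ± 0.20 (SE). The adjusted p of these 6 genes by limma lay between 0.427 (Rpl41) and 0.605 (Rps29).

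The stalk recruits the elongation factors, with Rplp0 as its base and Rplp1 and Rplp2 as its arms. Rplp1 lay at 1455, 2701 and 3098 TPM in the IL-10 B-WT mice and at 2483, 3178 and 3657 TPM in the IL-10 B-KO mice, and Rplp2 at 564, 906 and 944 TPM and at 824, 907 and 1341 TPM. Their differences were 0.29 ± 0.22 (SE) and 0.20 ± 0.18 (SE), and both lay below the median of the members, as did that of Rplp0.
Among the stalk genes Rplp0 had the least steady share of the members' total (coefficient of variation 27.0%, against 6.2% in Rplp1 and 11.7% in Rplp2). It lay at 668, 1133 and 1626 TPM in the IL-10 B-WT mice and at 712, 1103 and 1997 TPM in the IL-10 B-KO mice, a difference of 0.09 ± 0.29 (SE) with an adjusted p of 0.906 (limma). The groups overlapped along nearly their whole range.

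Rplp0 has a processed pseudogene, Gm8730 (GRCm38, chromosome 8, 102864845 to 102865798, minus strand), whose annotated transcript is as long as the Rplp0 coding sequence, 954 bases, and differs from it by 12 substitutions (98.7% identity). Counted from 1 at the A of the start codon, with the Rplp0 base first, 9 of them keep the amino acid (T72C, G138C, T192C, T300C, A390G, A393G, G558C, T603G and A696G) and 3 change it (A447T, G502A and A784G). The pseudogene keeps an open frame of 317 codons, as many as Rplp0. Positions 381 to 452 of both, from the GENCODE M21 transcripts, show how few letters tell their reads apart, with the differing bases in capitals.
Rplp0: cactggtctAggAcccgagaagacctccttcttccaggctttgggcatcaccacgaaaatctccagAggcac
Gm8730: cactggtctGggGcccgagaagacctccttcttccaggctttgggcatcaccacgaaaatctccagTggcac

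Gm8730 lay between 0.07 and 1.92 TPM in all 6 IL-10 B-WT libraries. In IL-10 B-KO it was at 597 TPM in replicate 1, 370 in replicate 2, 256 in replicate 4, 352 in replicate 5 and 496 in replicate 6, but at 0.70 TPM in replicate 3, which thus looked like the IL-10 B-WT libraries. A second copy, Gm9625 on chromosome 13 (97.4% identity), had the same pattern, with 36.6 to 67.0 TPM in the same 5 libraries, 1.41 in IL-10 B-KO replicate 3 and at most 0.85 in IL-10 B-WT.
With the filter, both copies passed the threshold, Gm8730 with a log2 fold change of 6.57 ± 1.16 (SE) and an adjusted p of 0.0236 and Gm9625 with 4.30 ± 0.66 (SE) and an adjusted p of 0.0148 (limma). Gm9625 passed the filter through the IL-10 B-KO libraries alone, where it is high, and Gm8730 through 5 of these and 1 IL-10 B-WT library, and neither was called without a filter. The log2 fold change of Gm8730 lay between 6.19 and 7.88 in all 23 alternatives and was highest without IL-10 B-KO replicate 3 (7.88 ± 0.28 SE, adjusted p of 1.97e-08, limma), but the call was lost in 10 of them (adjusted p up to 0.104, without a filter). These included leaving out IL-10 B-KO replicates 1, 4, 5 or 6 (0.0671, 0.0544, 0.0717 and 0.0602) and IL-10 B-WT replicates 4, 5 or 6 (0.0540, 0.0736 and 0.0660). Gm9625 lost it in 2, without a filter (0.0757) and without IL-10 B-WT replicate 5 (0.0506).
In the 5 libraries with Gm8730, it held 17.1% to 35.4% of the sum of Rplp0 and both copies, and at most 0.212% in the other 7. That sum was 668 to 1627 TPM in the IL-10 B-WT mice and 1127 to 2052 TPM in the IL-10 B-KO mice. With all copies of at least 95% identity added, the difference of Rplp0 was 0.54 ± 0.24 (SE) in place of 0.09, with an unadjusted p of 0.0437 and an adjusted p of 0.380 (limma), so that Rplp0 went from the second lowest difference of the 81 to a place among the 7 members at an unadjusted p of at most 0.05, while Rps28 left them. Whether the copies were transcribed or took reads of Rplp0 was not tested.

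Copies mattered for the levels of other members as well. The annotation held 588 processed pseudogene copies of 78 members at 95% identity or more over at least 80% of the copy, of which 418 were above 0 TPM in at least 1 library and 21 had a mean of at least 100 TPM. Of those 21, 16 were identical to their gene over the aligned stretch, so that no read within it can tell them apart. In 11 members the matched copies held over 50% of the sum of gene and copies. The largest shares were those of Rpl12 (97.3%, led by Gm10275), Rpl27a (86.1%, Gm7536), Rps28 (83.4%, Gm10443), Rpl5 (82.7%, Gm15500), Rpl14 (73.4%, Rpl14-ps1) and Rpl28 (68.3%, Rpl28-ps1). Rpl10-ps3 was not among the matched copies of Rpl10, whose summed mean was 0.29 TPM. Its mean across the IL-10 B-KO libraries was 933 TPM, where that of Rpl10 was 499 TPM. For the IL-10 B-WT libraries these means were 719 and 406 TPM. The copy counts, shares, sums and ranks given here leave Rpl10-ps3 out.
Gm10443 is the plainest case, since its annotated transcript of 210 bases is the whole Rps28 coding sequence letter for letter. It is printed here once for both, with start and stop codon in capitals.
Rps28 and Gm10443: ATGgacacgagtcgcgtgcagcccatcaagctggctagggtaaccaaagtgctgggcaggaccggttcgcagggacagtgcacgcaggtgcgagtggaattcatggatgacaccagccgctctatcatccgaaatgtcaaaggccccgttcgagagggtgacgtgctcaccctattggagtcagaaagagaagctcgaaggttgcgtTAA
The mean over 12 libraries was 566 TPM for Rps28 and 2850 TPM for Gm10443. With the copies added, Rps28 moved from rank 59 to rank 1 of the members, Rpl27a from 70 to 10, Rpl12, a protein at the foot of the stalk, from 81 to 40, and Rpl28 from 65 to 19. TPM is corrected for length, and some copies are annotated as short stretches, such as Gm10443 (210 bases) and Gm42845 (105 bases). A read counts for more TPM on a shorter transcript. These ranks and the sums below are therefore not measured levels of the genes.
Over 75 core members, the ratio of the highest to the lowest mean TPM fell from 112 to 12.3 with the copies added, and the SD of their log2 means from 1.10 to 0.75. The copies held 15.8% to 17.7% of the sum of members and copies in IL-10 B-WT and 16.0% to 17.9% in IL-10 B-KO, so that this share overlapped between the genotypes. Adding them left the number of members past the threshold at 0 (limma), with a lowest adjusted p of 0.350. At an unadjusted p of at most 0.05 were 7 members (8.64%), where 12.56% of all genes were at that p in either direction. All 7 were higher in IL-10 B-KO, the direction of 6.82% of all genes.
For the members most affected, the difference with copies was 0.37 ± 0.26 (SE) in Rpl12 (0.46 without), 0.39 ± 0.20 (SE) in Rps28 (0.49 without), 0.32 ± 0.22 (SE) in Rpl27a (0.39 without) and 0.29 ± 0.22 (SE) in Rpl5 (0.46 without). In Rpl14 it was 0.30 (0.25 without) and in Rpl28 0.23 (0.25 without).

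**Figure D3:**
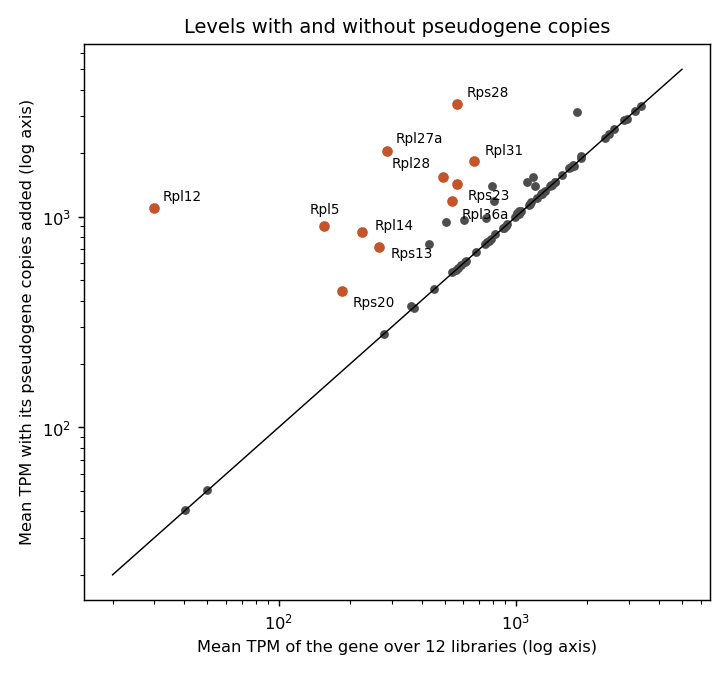
Mean TPM over the 12 libraries of each member with matched copies and at least 10 TPM (x axis, log scale) against the mean TPM of the member with its pseudogene copies of at least 95% identity added (y axis, log scale). The line marks equal values, and the 11 orange points above it are the members of which copies hold over 50% of the sum, with Rpl12 farthest from the line.

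The paralogs were compared with their parent genes within each library, which removes the scale of the library. Both genes of 5 of the 8 pairs passed the filter, and their coding sequences were 72.1% (Rpl7l1, over 183 aligned bases) to 87.8% (Rpl36al, over 321 aligned bases) identical to the parent's. For Rps4l, annotated as a pseudogene, the whole transcript of 943 bases was aligned in place of a coding sequence. Rpl36al, the autosomal paralog of the X-linked Rpl36a, was the only paralog near its parent's level, with 37.2% to 43.4% of the summed TPM of the pair. This share rests on how reads were divided, since copies held 54.6% of the sum of Rpl36a and its copies, most of it in the identical Rpl36a-ps2, and with copies added to both genes Rpl36al held 20.7% to 26.5%. The other paralogs held 3.83% to 15.3%, and in every library each was the lower of the pair.
Rpl22l1, the paralog of the RNA-binding protein Rpl22, lay at 15.1, 38.7 and 57.8 TPM in the IL-10 B-WT mice and at 38.8, 53.1 and 122 TPM in the IL-10 B-KO mice. The highest value was that of replicate 6, where Rpl22l1 held 15.3% of the pair, against 5.55% to 8.17% in the other 11 libraries. Its log2 ratio to Rpl22 was -3.81 ± 0.20 (SD, n = 6) in IL-10 B-WT and -3.52 ± 0.55 (SD, n = 6) in IL-10 B-KO, a difference of 0.29 ± 0.24 (SE) that fell to 0.08 without IL-10 B-KO replicate 6.
Rps27l, a p53 target that takes the place of Rps27 in some ribosomes, lay at 88.5, 160 and 183 TPM and at 158, 197 and 256 TPM, and Rps27 at 1141, 3001 and 3094 TPM and at 2270, 2580 and 3348 TPM. Their log2 ratio was -4.04 ± 0.42 (SD, n = 6) and -3.69 ± 0.38 (SD, n = 6), a difference of 0.34 ± 0.23 (SE).
For Rpl36al over Rpl36a the difference was 0.10 ± 0.07 (SE), for Rpl7l1 over Rpl7 0.03 ± 0.18 (SE) and for Rps4l over Rps4x -0.33 ± 0.22 (SE), or -0.18 without IL-10 B-KO replicate 4. Rps4l lay at 54.6, 85.7 and 117 TPM in the IL-10 B-WT mice and at 45.4, 76.0 and 115 TPM in the IL-10 B-KO mice, while Rps4x, the X-linked parent, lay at 706, 967 and 1139 TPM and at 944, 1123 and 1230 TPM. By the two-sided exact permutation test over all arrangements of the libraries, p lay between 0.162 (Rpl36al) and 0.885 (Rpl7l1), and between 0.299 and 0.885 after Benjamini-Hochberg adjustment over the 5 pairs, where the smallest p possible is 0.00216. The groups overlapped in all 5 ratios.

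**Figure D4:**
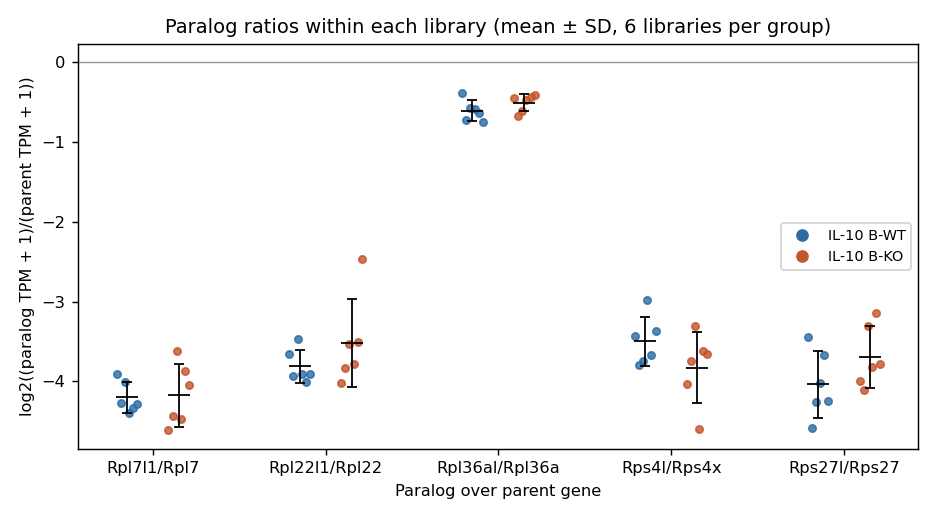
log2 ratio of paralog to parent gene, each as TPM + 1 (y axis), for the 5 pairs of which both genes passed the filter (x axis), with 1 point per library (blue for IL-10 B-WT, orange for IL-10 B-KO) and the mean ± SD of 6 libraries in black. The points of the genotypes overlap in every pair, and Rpl22l1/Rpl22 in IL-10 B-KO replicate 6 (15.3% of the pair) lies above its group.

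Genes that work with the ribosome showed no call either. In 8 lists with 203 genes, 0 passed the threshold by limma, and the number at an unadjusted p of at most 0.05 was 2 of 9 for ribosomal protein genes and copies outside the name rule, 1 of 20 for other TOP translation genes, 1 of 21 for initiation factors, 1 of 36 for ribosome biogenesis, 1 of 17 for mTORC1 and its TOP effectors, 4 of 12 for p53 and its targets, 0 of 10 for ribosome quality control and 7 of 78 for mitochondrial ribosomal proteins. All of these 17 genes were higher in IL-10 B-KO, beside 12.5% of all genes at that p in either direction and 6.83% in this direction.
The list medians of the log2 fold change were 0.27, 0.34, 0.27, 0.23, 0.20, 0.45, 0.07 and 0.25 in the same order, beside 0.37 for the members. Without IL-10 B-WT replicate 5 they were 0.05, 0.19, 0.14, 0.05, 0.03, 0.37, -0.10 and 0.11, beside 0.17.
Of the genes outside the name rule, Rpl10-ps3 and Rpl9-ps6 are named as pseudogenes and Rpl37rt is annotated as a processed pseudogene. Those at an unadjusted p of at most 0.05 (limma) were Rpl10-ps3, with a difference of 0.40 ± 0.17 (SE), and Fau. Fau, which encodes Rps30 fused to a ubiquitin-like protein, lay between 635 and 1369 TPM in the IL-10 B-WT mice and between 1174 and 1938 TPM in the IL-10 B-KO mice, a difference of 0.48 ± 0.21 (SE). Eif4a1, the helicase of translation initiation, lay between 74.6 and 277 TPM and between 188 and 385 TPM, a difference of 0.64 ± 0.30 (SE), and Eif4ebp1, an mTORC1 substrate that restrains eIF4E, between 28.8 and 69.0 TPM and between 37.0 and 99.4 TPM, a difference of 0.66 ± 0.25 (SE). Nhp2, a protein of the small nucleolar particles that modify rRNA, had 0.56 ± 0.23 (SE), and Eif3f 0.31 ± 0.13 (SE).
In the p53 list, Bax lay between 57.0 and 165 TPM and between 115 and 243 TPM, a difference of 0.72 ± 0.25 (SE), and Eda2r between 0.40 and 1.12 TPM and between 0.66 and 3.31 TPM, a difference of 0.62 ± 0.24 (SE). Trp53 itself had 0.01 ± 0.17 (SE) and Mdm2 0.44 ± 0.28 (SE). The adjusted p of the named genes in these lists by limma lay between 0.302 (Bax) and 0.984 (Trp53).

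Markers of several cell types lay on one side of 0 beside these genes, and only markers of B cells and plasma cells passed the threshold. Of 5 tested plasma cell markers, 4 were below 0 and 1 was above 0, with a median log2 fold change of -0.35. At an unadjusted p of at most 0.05 (limma), 2 were below 0 and 1 was above 0. Among them, Jchain, which joins immunoglobulin chains, lay at 32.0 to 2170 TPM in the IL-10 B-WT mice and at 0.03 to 2.96 TPM in the IL-10 B-KO mice, a difference of -7.60 ± 0.76 (SE) with an adjusted p of 0.000662 (limma). Mzb1, a chaperone of antibody assembly, had -3.57 ± 0.58 (SE) with an adjusted p of 0.0195 (limma). All 7 neutrophil markers had a log2 fold change above 0, with a summed level of 276 to 2479 TPM in the IL-10 B-WT mice and 1041 to 7527 TPM in the IL-10 B-KO mice, and 7 of 7 had an unadjusted p of at most 0.05 but none passed the threshold. All 7 macrophage markers were above 0 too (4 at that p), with 70.5 to 1132 TPM and 354 to 2031 TPM, and so were all 5 markers of cycling cells (2 at that p), with 11.3 to 196 TPM and 55.7 to 169 TPM. The 4 alveolar type 2 markers were above 0 (3 at that p). The 7 B cell markers were below 0 (6 at that p), with 69.9 to 869 TPM and 10.8 to 83.5 TPM, and Cd79a among them, from whose gene the Cre is driven, passed the threshold. The 5 erythroid genes were below 0 (none at that p by limma), with 2958 to 96320 TPM and 3523 to 22580 TPM, as were the 7 genes of pulmonary vein cardiomyocytes (2 at that p), with 65.4 to 1574 TPM and 23.7 to 430 TPM, and the 5 endothelial markers (1 at that p). T cell markers (4 of 7 above 0) and alveolar type 1 markers (2 of 4) lay on both sides. Without IL-10 B-WT replicate 5, all 7 T cell markers were below 0 (none at that p), and the other lists kept their directions. At that p by limma were then 6 neutrophil, 2 macrophage, 1 cycling cell, 2 alveolar type 2, 1 alveolar type 1 and 6 B cell markers. None of the cardiomyocyte, endothelial or erythroid genes was at that p in this fit. In IL-10 B-WT replicate 5 the neutrophil, macrophage and cycling cell sums were the lowest of the 12 and the erythroid sum was the highest. No list had a gene at 0 in all libraries, and the part of these cells in the differences of the ribosomal protein genes was not tested.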

How the data were processed

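Lung RNA from 12 mice, 6 of each genotype, was sequenced by the authors, whose deposited table gives TPM per gene, estimated with RSEM. The submitters' processing notes also name fastp and HISAT and the build GRCm38.p5; versions were not given in the sources used here. TPM is a share, so lower mitochondrial or globin RNA raises every other gene, and read depth is unknown. RSEM divides reads that fit several genes among them, which bears on genes with near-identical copies.

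Genes with at least 1 TPM in at least 6 of 12 libraries (15148) were tested on log2(TPM + 1) with limma 3.58.1 (R 4.3.3, trend, genotype alone), Benjamini-Hochberg adjusted. Fold changes are on that scale, which understates changes of low genes. The threshold, a log2 difference of 1 or more either way at an adjusted p not above 0.05, is a reading of the study's methods, which ask for a fold of change of at least 1 and do not say that it is on the log2 scale. Paralog ratios were tested by exact permutation (SciPy 1.17.1). Copies were found by aligning GENCODE M21 transcripts with blastn 2.17.0. Motifs and sequences came from RefSeq (GRCm38.p6), which gave a promoter for 63 of 86 members, and GENCODE M21. The fit was tested on simulated data. The labels do not say whether libraries were prepared separately, so p-values measure the spread between these samples.

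Named members were the stalk, both genes of 8 paralog pairs, the 5 highest and 5 lowest means, the 5 largest log2 fold changes and the 5 at the other end of their order, of which 1 was below 0, the 8 smallest p, members with known extra roles or used as references, and the 6 with the largest copy share, plus up to 2 genes per pathway list. Others named for their values (Rps23, Trp53, Mdm2, the starts printed) were chosen after these were seen. Members and lists were chosen with earlier results of these data known. Alternatives were other pseudocounts, filters, scalings, weights, a replicate block, leaving out each library and adding copies.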

Additional observations from a re-analysis of the deposited data

Results flagged for a closer look

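In each group of 6 libraries, the gap of the highest or lowest library to its neighbour, divided by the range of the group, was compared with Dixon's limit at the 0.05 level. Of 100 such groups, 25 exceeded it, where chance alone flags about 1 in 20 groups, and 15 of the 25 concerned IL-10 B-WT replicate 5. These flags share libraries and are not independent.

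IL-10 B-WT replicate 5 was the lowest of its group in Rplp1 (0.704), Rpl10 (0.871), Rpl22 (0.764), Rpl36a (0.740), Rpl39 (0.689), Rpl41 (0.638), Rps15 (0.667), Rpl15 (0.633), Rps19 (0.640), Rpl11 (0.747), Rps18 (0.687) and Rpl27a (0.649). It was also the lowest in the share of all members (0.662), the highest in the share of mitochondrially encoded genes (0.690) and the highest in the share of pseudogene copies among members and copies (0.699). IL-10 B-WT replicate 2 was the highest in the share of immunoglobulin genes (0.871).

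IL-10 B-KO replicate 1 was the highest of its group in Rplp2 (0.690), Rpl7 (0.669), Rps15 (0.773), Rps24 (0.682) and Rps28 (0.653). IL-10 B-KO replicate 6 was the highest in Rpl22l1 (0.806), in its log2 ratio to Rpl22 (0.668) and in the share of pseudogene copies (0.853), and IL-10 B-WT replicate 1 was the lowest in the ratio of 40S to 60S genes (0.751). The causes were not tested.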

How the results depend on the processing

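The number of members past the threshold was 0 under every alternative run, and the median of the members stayed above 0, from 0.17 to 0.42 with each library left out. The number of members at an unadjusted p of at most 0.05, 7 as reported (8.64%, where 12.5% of all genes were at that p), moved to 26 without mitochondrially encoded genes (32.1%, all genes 15.9%), 32 without these and their nuclear copies (39.5%, all genes 17.5%, chosen after seeing the data) and 30 with centring on the median of all tested genes (37.0%, all genes 18.7%), where the members lay above all genes. It moved to 2 without immunoglobulin genes (2.47%, all genes 11.3%), 13 with quantile normalization (16.0%, all genes 18.6%), 12 with array quality weights (14.8%, all genes 24.9%) and 1 with centring on the members (1.23%, all genes 28.2%), where they lay below all genes in either direction. Of genes higher in IL-10 B-KO alone, the share of all genes was 11.2% with quantile normalization and 11.1% with the weights, under that of the members. With each library left out the number of members ran from 1 to 18, the highest without IL-10 B-WT replicate 1 (22.2%, all genes 25.2%). All 18 were higher in IL-10 B-KO, where 18.0% of all genes were higher at that p. The median of all genes, 0.10, moved to -0.24 with centring on the members, -0.0085 with centring on all genes and -0.0081 with the weights. With quantile normalization 72 of 81 (88.9%) were above 0 in place of 80, where 52.6% of all genes were above 0. The replicate numbers did not pair the libraries (correlations of same-numbered deviations from -0.29 to 0.05, no number matching itself best). With a replicate block 1 member had an unadjusted p of at most 0.05 (1.23%, all genes 10.25%), and none passed the threshold. Of the 38 named members that were tested, the direction turned with quantile normalization in Rplp0 (-0.069), Rps4x (-0.052), Rps27 (-0.12), Rps15 (-0.033), Rps20 (-0.054) and Rps24 (-0.046), and with array quality weights in Rplp0 (-0.022) and Rps27 (-0.12). With centring on all genes it turned in Rplp0 (-0.019), and centring on the members, which by construction puts those under their median below 0 and so says nothing on stability, gave negative values in Rplp0 (-0.25), Rplp1 (-0.046), Rplp2 (-0.13), Rpl7 (-0.10), Rpl10 (-0.022), Rps4x (-0.15), Rps27 (-0.20), Rpl7l1 (-0.074), Rpl13a (-0.023), Rps15 (-0.15), Rps20 (-0.22), Rps24 (-0.17), Rps29 (-0.10), Rpl14 (-0.085) and Rpl28 (-0.085). With each library left out the values ran from -0.066 to 0.23 in Rplp0, -0.079 to 0.21 in Rps27, -0.27 to 7.4e-05 in Rps4l, -0.031 to 0.21 in Rps20, -0.0010 to 0.23 in Rps24, and, as log2 ratios, -0.085 to 0.12 in Rpl7l1 to Rpl7, 0.078 to 0.39 in Rpl22l1 to Rpl22, and -0.43 to -0.18 in Rps4l to Rps4x. Counts at an unadjusted p of at most 0.05 in the 8 pathway lists moved by over 1.5 times in 83 of 184 cases, but 0 of their genes passed the threshold under any. The causes were not tested. TPM keeps no depth, so no counting error can be given.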
